A study of Caenorhabditis elegans with 2 samples.

Results

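UNC-120 binding inside gene bodies, away from transcription starts, was described from ChIP-seq of whole Caenorhabditis elegans embryos. The regions were taken from the authors' list of reproducible regions by a rule that uses position only. The choice was made with earlier results of these data known. A peak was taken when it lay on an autosome and its summit fell inside a protein-coding gene but in no window from 1000 bp upstream to 500 bp downstream of a protein-coding 5' end. Summits within 300 bp of a tRNA gene or 200 bp of a snoRNA or snRNA gene were left out. Of the 2946 nuclear peaks in the authors' ce11 list of reproducible regions, 322 met this rule, and they lay in 237 host genes. They are called gene body distal peaks below, because 307 of the 322 were intronic and 15 were not. The host is the gene that contains the summit, and the shortest one where there are several. The embryos came from strain OP659, which has the genotype unc-119(tm4063) III with the transgene wgIs659 and makes UNC-120 with a C-terminal fusion of GFP and FLAG. They were of mixed stage and both sexes, were taken 3 h after bleaching, and their sonicated chromatin was precipitated with an antibody to GFP. The 2 libraries were biological replicates of this 1 group. A control experiment is named in the labels and was not analysed here.

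UNC-120 is a MADS box protein of the serum response factor family, and in the worm it acts with the MyoD homologue HLH-1 to establish body wall muscle. Factors of this family bind the CArG box, and MyoD type factors bind E-boxes such as CAGCTG and CACCTG. Introns of worm muscle genes are known to hold enhancers, and long first introns are common sites of regulatory sequence. In whole embryos, binding in more cells and stronger binding per cell cannot be told apart.

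The following windows, each reaching 100 bp to both sides of a summit and given 5' to 3' on the plus strand of ce11 (WBcel235), show the sequence types met among these peaks. Capitals mark GAGAGAGA, CAGCTG or CACCTG on either strand, and overlapping copies of a repeat are merged. K01F9.2 (chrIII:8874310-8874510) holds the strongest peak of the set and a GA repeat. The windows of hlh-1 (chrII:4520080-4520280) and unc-62 (chrV:4507930-4508130) hold E-boxes within regulator genes, and mab-5 (chrIII:7780585-7780785) holds an E-box beside a GA repeat. The window of unc-49 (chrIII:10526074-10526274), a receptor gene of muscle, holds several GA repeats. The window of myo-3 (chrV:12233559-12233759), a myosin gene, holds none of the sequences searched. The window of daf-14 (chrIV:10252392-10252592) was picked after its values were seen, for a long run of alternating G and A on the minus strand.
K01F9.2: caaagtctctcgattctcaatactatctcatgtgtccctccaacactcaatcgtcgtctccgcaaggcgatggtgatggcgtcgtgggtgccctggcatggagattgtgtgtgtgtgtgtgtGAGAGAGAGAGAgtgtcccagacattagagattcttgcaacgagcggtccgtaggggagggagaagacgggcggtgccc
hlh-1: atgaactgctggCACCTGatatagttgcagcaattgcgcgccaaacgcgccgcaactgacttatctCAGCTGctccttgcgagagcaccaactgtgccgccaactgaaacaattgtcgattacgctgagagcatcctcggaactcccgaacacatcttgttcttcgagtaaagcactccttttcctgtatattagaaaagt
unc-62: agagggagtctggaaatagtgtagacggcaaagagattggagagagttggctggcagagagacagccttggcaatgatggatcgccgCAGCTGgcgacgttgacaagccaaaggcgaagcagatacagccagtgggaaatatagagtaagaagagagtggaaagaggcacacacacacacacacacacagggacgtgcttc
mab-5: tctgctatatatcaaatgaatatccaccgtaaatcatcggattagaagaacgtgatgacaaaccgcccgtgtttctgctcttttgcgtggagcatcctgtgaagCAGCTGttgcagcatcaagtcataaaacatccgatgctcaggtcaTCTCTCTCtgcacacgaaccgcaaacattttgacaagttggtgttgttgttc
unc-49: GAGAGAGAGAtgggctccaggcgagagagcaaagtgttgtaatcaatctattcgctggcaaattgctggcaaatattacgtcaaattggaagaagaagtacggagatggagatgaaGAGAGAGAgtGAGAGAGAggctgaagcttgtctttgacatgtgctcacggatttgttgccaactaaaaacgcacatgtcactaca
myo-3: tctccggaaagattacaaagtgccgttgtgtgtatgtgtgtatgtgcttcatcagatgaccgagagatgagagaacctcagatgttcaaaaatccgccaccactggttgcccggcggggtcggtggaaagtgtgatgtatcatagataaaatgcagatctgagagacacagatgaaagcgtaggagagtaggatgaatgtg
daf-14: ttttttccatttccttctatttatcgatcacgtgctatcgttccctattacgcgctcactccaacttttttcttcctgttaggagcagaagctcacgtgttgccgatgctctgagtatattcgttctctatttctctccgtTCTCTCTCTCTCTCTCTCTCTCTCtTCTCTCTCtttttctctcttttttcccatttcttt

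The label of the set was checked against the gene models. By the host transcript of longest span, 307 of 322 summits were in introns (95.3%, Wilson 95% interval 92.5 to 97.2), against 56.7% of the sequence that meets the same rule. A further 8 were in 3' UTRs, 3 in 5' UTRs and 3 in coding exons, and 1 lay under no protein-coding transcript of its gene. Coding exons made up 37.9% of that sequence and held 0.220 peaks per Mb, against 15.1 per Mb in introns. The strongest of the 15 summits outside introns was in a 5' UTR of F22D3.4, with a score of 431.

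The score is the authors' own measure of peak strength within the list, on a scale not given in the sources used here. Scores of the 322 peaks ran between 185 and 1842, with a median of 278 (95% interval 267 to 300). The median was 289 for the 1176 autosomal promoter peaks (278 to 298) and 293 for the 578 autosomal intergenic distal peaks (281 to 305). These intervals overlap. The 1473 strongest nuclear peaks included 45.03% of the gene body distal peaks (39.7 to 50.5), against 48.6% of promoter peaks (45.8 to 51.5) and 50.2% of intergenic distal peaks (46.1 to 54.2). The median width was 444 bp in each of the 3 classes. At the edge of the rule, the 9 peaks within 50 bp outside a 5' window had scores between 208 and 531 with a median of 248. The 12 peaks that lay inside a window by less than 50 bp had scores between 207 and 667 with a median of 407.

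Each replicate had its own ranked list of 30000 regions, and these lists give the spread behind the pooled values. The 322 peaks come from a list thresholded on reproducibility between these same replicates. Agreement between the replicate ranks below is therefore in part fixed by that selection. A summit within 200 bp was found for 321 of the 322 peaks in both replicates, the exception being a peak in pqn-22. Ranks in replicate 1 ran between 3 and 13013 with a median of 1597, and ranks in replicate 2 between 2 and 7833 with a median of 1538. The 2 ranks differed by no more than 2 times for 252 of 321 peaks (78.5%, 73.7 to 82.6). Both replicates placed 242 peaks among their own top 2946 nuclear regions (75.2%, 70.2 to 79.6), against 75.9% of promoter peaks and 77.7% of intergenic distal peaks. The lowest place in either list was that of a peak in ell-1, an elongation factor gene, with rank 13013 in replicate 1 and 2026 in replicate 2. Each of the 15 peaks with the highest pooled scores ranked 275 or better in both replicates.

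**Figure D1:**
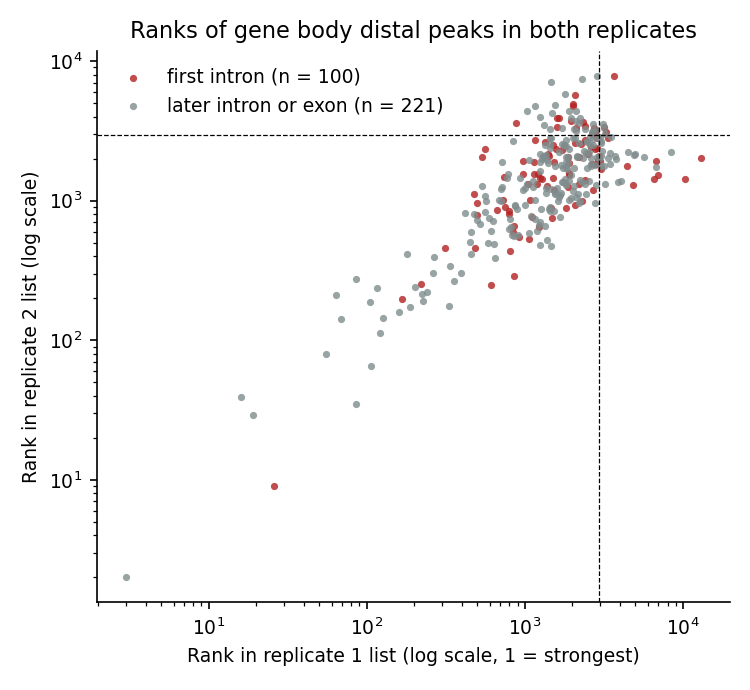
Rank of each of the 321 matched gene body distal peaks in the replicate 1 list (x axis) and the replicate 2 list (y axis), both on log scales with 1 as the strongest, coloured by first intron or other position. Dashed lines mark rank 2946, and 242 peaks lie to the left of and below these lines, in the top 2946 of both lists.

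The strongest of these peaks lay in the fourth of 5 introns of K01F9.2, on chromosome III with its summit at 8874410, in the first window printed above. Its score was 1842, its rank was 3 in the nuclear list, and the replicates ranked it 3 and 2. A second summit 208 bp away had a score of 513. The gene of the microRNA mir-90 lies 326 bp from the stronger summit. The rule does not leave out microRNA genes, so a distal position was measured here only against protein-coding 5' ends.

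Next by score came chromatin, signalling and RNA genes as well as muscle genes. In let-526, which encodes an ARID domain subunit of the SWI/SNF complex, a first intron summit had a score of 1251 and replicate ranks of 26 and 9. That summit also lay inside the antisense RNA gene F48C1.15. In ppfr-1, for a regulatory subunit of protein phosphatase 4, the best score was 1158 with replicate ranks of 16 and 39. The summit in ints-8, an Integrator complex gene, scored 1149 with ranks of 19 and 29, and it lay inside rpr-1, the gene of RNase P RNA. The others among the 15 highest were in unc-94, unc-120 and dys-1, described with the muscle lists, in larp-1 (an RNA-binding protein; 872), pqn-41 (829), rpc-2 (a subunit of RNA polymerase III; 787), saeg-1 (763), zfp-1 (a chromatin protein of the AF10 family; 727) and rnt-1 (the RUNX factor; 725), with second peaks in let-526 (743) and ppfr-1 (733). The rnt-1 peak had rank 159 in the nuclear list and in both replicates. Of the 10 strongest peaks 1 was in a first intron, and of the 50 strongest 9 were (18%, 9.77 to 30.8). Over all 322 peaks 101 were in first introns. Several of the strongest peaks share a host gene.

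A single peak was the usual number per host gene. Of 237 hosts 178 held 1 peak, 42 held 2, 10 held 3, 6 held 4 and 1 held 6. The 59 hosts with 2 or more held 144 of the 322 peaks (44.7%). The 6 peaks of ppfr-1 lay in its introns 4 and 5, with scores between 233 and 1158. The 4 peaks of daf-5, for the Sno/Ski partner of the dauer Smad proteins, were all in its first intron of 14446 bp. T28B11.1 had 3 peaks in a first intron of 17091 bp and 1 in its 3' UTR. The 4 peaks of pqn-41 were in intron 14, of 10372 bp. Those of mbk-2, for a DYRK kinase, were in introns 4 and 6, and those of Y56A3A.7 in introns 6 and 9. Summits lay within 400 bp of another gene body distal peak in 32 cases, so neighbouring peaks are not separate pieces of evidence. Only 4 summits were inside more than 1 gene body.

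Host genes were long. Their median length was 10500 bp, against 2251.5 bp for the 14806 autosomal protein-coding genes with any sequence that meets the rule. Median sequence that meets the rule was 7273 bp in hosts, against 1361 bp in the genes that could host. A longer gene offers more sequence for a summit to fall in, so hosts are longer in part by construction. Hosts were 1.60% of those 14806 genes and 1.37% of all 17242 autosomal protein-coding genes. Peaks per Mb of sequence that meets the rule were 10.6 on chromosome I, 8.20 on II, 10.4 on III, 9.01 on IV and 6.72 on V, and 8.97 over all 35.9 Mb.

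The rule sets a least distance from each 5' end, so distances were read against the sequence that meets it. Summits had a median distance of 3909 bp downstream of the most distant 5' end of the host, against 2583 bp for the bases of that sequence, and the farthest was at 38779 bp, in hmr-1. From the nearest 5' end upstream in the same gene the median was 2524 bp, with a lowest value of 517 bp. On that measure 44 peaks (13.7%) were within 500 to 1000 bp and 192 (59.6%) were over 2000 bp away. Another annotated 5' end of the same host lay downstream of the summit for 190 peaks (59.0%, 53.6 to 64.2), against 15.5% of the sequence that meets the rule. Most of these summits were thus inside the host and also upstream of a shorter transcript of it, but outside that transcript's 1000 bp window.

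Many hosts were also bound at a 5' end. A listed peak lay in the 5' window of 95 of 237 hosts (40.1%, 34.1 to 46.4), against 8.75% of the 14806 genes that could host one and 8.88% of all autosomal protein-coding genes. In 5 of these 95 hosts every such peak was within 400 bp of a gene body distal summit, and 90 hosts had one farther away (37.98%, 32.0 to 44.3). Windows were set at every annotated protein-coding 5' end, so a peak in them could lie at an internal one, as in lim-9. Hosts were also longer than other genes, and these shares were not set per window. In 42 of these 95 genes (44.2%) the gene body peak had the higher score, and the median ratio of gene body over 5' window score was 0.939. Scores in the gene body and the 5' window were 1149 and 214 at ints-8, 1251 and 332 at let-526, and 725 and 262 at rnt-1. The window summit of let-526, at 5313455, was at an internal 5' end. It also lay within the region of the gene body peak at 5313250. The reverse held at hlh-1, with 574 in the gene body and 1300.0 in the 5' window. Both orders therefore occurred among the strongest hosts.

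First introns were compared with later ones per length of sequence that meets the rule, because the 5' window removes much of many first introns. First introns held 101 of 307 intronic summits (32.9%, 27.9 to 38.3) on 15.7% of that intron sequence. This was 31.6 peaks per Mb (exact Poisson 95% interval 25.8 to 38.5) in first introns, against 206 peaks and 12 per Mb (10.4 to 13.8) in later introns, a ratio of 2.64 (2.08 to 3.34). The ratio was 2.49 in the replicate 1 list and 2.62 in the replicate 2 list. By intron number the density was 31.6 per Mb in the first, 18.8 in the second, 8.75 in the third, 14.7 in the fourth, 11.5 in the fifth and 9.45 beyond. Each of these values had a replicate 1 and a replicate 2 value within its Poisson interval. Intervals here cover counting over peaks only, and no test was run, because peaks of 1 pooled list are not replicates.

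**Figure D2:**
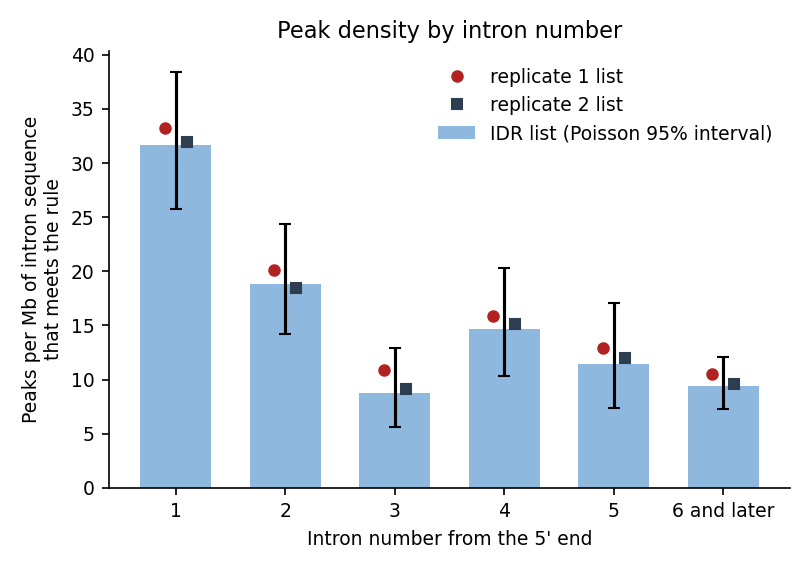
Gene body distal peaks per Mb of intron sequence that meets the rule (y axis) by intron number counted from the 5' end (x axis), with bars and Poisson 95% intervals for the authors' reproducible list and points for the top 2946 regions of each replicate. First introns stand at 31.6 per Mb and introns beyond the fifth at 9.45 per Mb.

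Intron length moved with this difference. The introns that held peaks had a median length of 4213 bp, against 105 bp for the 58719 introns with sequence that meets the rule. Of 307 intronic summits 272 (88.6%) were in introns over 1000 bp, against 10.3% of those introns and 51.4% of their sequence that meets the rule. Density was 2.32 per Mb in introns up to 500 bp and 4.86 from 501 to 1000 bp. It was 9.12 from 1001 to 2000 bp, 30.7 from 2001 to 5000 bp and 45.9 per Mb in introns over 5000 bp. First introns with a peak had a median length of 5402 bp, against 3899 bp for later ones.

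First and later introns were then compared within each length class. In introns over 5000 bp, first introns had 49.01 peaks per Mb (36.6 to 64.3) and later introns 44.1 (34.9 to 55.0). From 2001 to 5000 bp the values were 44.0 (31.0 to 60.7) in first introns and 26.2 (20.3 to 33.3) in later introns. From 1001 to 2000 bp they were 13.6 (5.87 to 26.8) in first introns and 8.41 (5.71 to 11.9) in later introns. From 501 to 1000 bp they were 3.71 in first introns on 2 peaks and 5.01 in later introns. In introns up to 500 bp they were 12.3 in first introns, again on 2 peaks, and 2.00 in later introns. The first over later density ratio was 1.11 (0.784 to 1.58) over 5000 bp, 1.68 (1.13 to 2.51) from 2001 to 5000 bp and 1.62 (0.757 to 3.45) from 1001 to 2000 bp. It was 0.740 (0.193 to 2.84) from 501 to 1000 bp and 6.16 (1.52 to 24.997) up to 500 bp. First introns thus had the higher density in 4 of the 5 classes, and the interval of the ratio lay above 1 in 2 of them, the shortest of which rests on 2 first intron peaks. Introns over 5000 bp made up 33.2% of first intron sequence that meets the rule, against 10.3% of later intron sequence. The higher overall density in first introns went with a larger share of long introns, whose part in the difference was not tested.

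**Figure D3:**
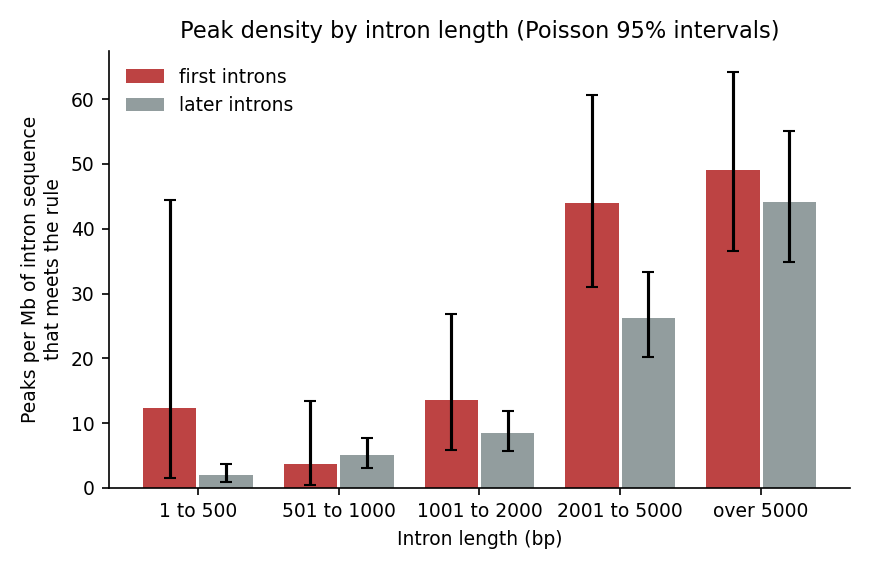
Gene body distal peaks per Mb of intron sequence that meets the rule (y axis) in first and later introns by intron length (x axis), with Poisson 95% intervals. Density is highest in introns over 5000 bp, at 49.01 per Mb in first and 44.1 per Mb in later introns, and first introns are higher in 4 of the 5 length classes.

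Other measures of first and later intron peaks lay closer together. The median score was 269 in first introns (187 to 1251, lowest to highest) and 284 in later introns (185 to 1842). The summit was a median of 1655 bp from the nearest exon in first introns and 930 bp in later introns. GAGAGAGA stood within 100 bp of the summit in 21 of 101 first intron peaks (20.8%, 14.02 to 29.7) and 55 of 206 later intron peaks (26.7%, 21.1 to 33.1). CAGCTG did so in 6 of 101 first intron peaks (5.94%, 2.75 to 12.4) and 23 of 206 later intron peaks (11.2%, 7.56 to 16.2). The intervals overlap for both sequences.

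Body wall muscle genes were hosts more often than genes at large, while the pharyngeal muscle list, described below, had 0 hosts of 11. Over the 3 lists of body wall muscle genes (sarcomere, attachment, and excitation with calcium handling), 15 of 70 autosomal genes held a gene body distal peak (21.4%, 13.4 to 32.4), against 1.37% of all autosomal protein-coding genes. The 15 genes held 19 peaks, or 30.2 per Mb of their sequence that meets the rule (18.2 to 47.1), against 8.97 per Mb over all genes. Density also rose with intron length, and this contrast was not made within length classes. Replicate 1 alone gave 16 of 70 and replicate 2 alone 12 of 70. The median of the best score per host was 339.7 in these genes and 296 over all 237 hosts. Of the 15 hosts 12 also had a peak in the 5' window, against 95 of all 237 hosts (40.1%). Such a peak was present at 36 of all 70 list genes. Of the 19 peaks 2 were in first introns, against 101 of all 307 intronic peaks (32.9%). The lists were drawn up with earlier results of these data known, so their counts are descriptions.

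Sarcomere genes had the highest share of hosts among the 10 lists, 7 of 18 (38.9%, 20.3 to 61.4), with 9 peaks and 44.1 per Mb (20.1 to 83.6). The strongest was in unc-94, for tropomodulin, which caps the pointed end of actin filaments. Its summit on chromosome I at 5997603 was in intron 4, with a score of 967 and rank 57, and it ranked 86 in replicate 1 and 35 in replicate 2. The 5' window peak of unc-94 had a lower score, 520.1. In lev-11, for tropomyosin, gene body peaks scored 496 and 195 and the 5' window peak 264.

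The myosin heavy chain genes had gene body peaks 684 and 1216 bp from their 5' ends. In myo-3, for myosin heavy chain A, the summit on chromosome V at 12233659 was in the first intron, 684 bp from the 5' end, with a score of 417 and replicate ranks of 855 and 657. That summit was also inside the noncoding gene K12F2.3. In unc-54, for the major body wall myosin heavy chain B, a summit in intron 3 on chromosome I at 14862266 had a score of 391.7 and replicate ranks of 1461 and 470. Its 5' window peak scored 1443, so the gene body held 0.271 of the score at the start, while at myo-3 the ratio was 0.941.

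Weaker peaks completed the sarcomere list. The paramyosin gene unc-15 scored 312 in intron 5, against 472 in its 5' window. The myosin light chain gene mlc-3 scored 283 in intron 2, against 285 in its 5' window. The obscurin type gene unc-89 scored 224 in intron 3 and 193 in intron 15, against 563 in its 5' window. The actin genes act-1 and act-2 had no gene body distal peak.

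Attachment and basement membrane genes, which link muscle filaments to the membrane and matrix, had 4 hosts of 25 (16%, 6.40 to 34.7) and 28.2 peaks per Mb (10.4 to 61.4). The tensin gene tns-1 had the strongest peak, with a score of 657 and replicate ranks of 202 and 241, and another in the same intron 203 bp away with a score of 219.8. The LIM domain gene lim-9 scored 339.7 in intron 12 and 216 in intron 7, against 984 in its 5' window. The kindlin gene unc-112 scored 249 in intron 2, with replicate ranks of 1447 and 3245, against 1239.7 in its 5' window. The peak in uig-1, for an exchange factor at attachment sites, scored 219 and had no 5' window peak beside it. Neither alp-1 nor atn-1 (alpha-actinin) was a host.

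Excitation and calcium handling genes had 4 hosts of 27 (14.8%, 5.92 to 32.5) and 18.8 peaks per Mb (5.12 to 48.1). The dystrophin gene dys-1 had a summit in intron 4 on chromosome I at 11554649, with a score of 806 and replicate ranks of 122 and 113. It had no peak in a 5' window. The GABA receptor gene unc-49, with the GA repeats printed above, scored 507 with replicate ranks of 455 and 414, against 283 in its 5' window. The junctophilin gene jph-1 scored 326. The L-type calcium channel gene egl-19 scored 216, with replicate ranks of 2046 and 3259. Neither acr-16, for an acetylcholine receptor, nor ccb-1, for a channel subunit, was a host in the pooled list. In replicate 1 alone ccb-1 was one.

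Regulators of muscle and mesoderm fate had 6 hosts of 27 (22.2%, 10.6 to 40.8) and 74.8 peaks per Mb (32.3 to 147). The strongest peak was in unc-120 itself, in intron 2 on chromosome I at 8461349, 1124 bp from the 5' end. It scored 941, with replicate ranks of 55 and 80, against 453 in the 5' window. The strain carries a transgene with unc-120 sequence, and the part of the transgene in this signal was not tested. In hlh-1 a pair of summits in intron 2, on chromosome II at 4520180 and 4520381, scored 574 and 375. The stronger, with both kinds of E-box in the window printed above, had replicate ranks of 267 and 393, and the weaker had 1004 and 929.

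The other regulator hosts covered homeobox, MADS and bZIP factors. The Meis type gene unc-62 scored 640.1 at an E-box window and 347 at a GA repeat 199 bp away, with replicate ranks of 330 and 177 for the stronger. The gene mef-2, of the MADS family like UNC-120, scored 311 in its first intron, and a MEF2 type site lay within 100 bp of that summit. Such sites were at 3 of 322 gene body distal peaks (0.932%), against 0.510% of promoter peaks, 0.865% of intergenic distal peaks and 1.04% of intron tiles. The endomesoderm factor gene skn-1 scored 266, also in a first intron, and the Hox gene mab-5 scored 232 in intron 3. The homeobox genes ceh-20 and ceh-24 were not hosts.

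Genes for muscle arms and guidance had 4 hosts of 13 (30.8%, 12.7 to 57.6) and 49.1 peaks per Mb (18.03 to 107). The ROR type receptor gene cam-1 scored 442 and 228 in its first intron, and the weaker of these ranked 6915 in replicate 1 and 1520 in replicate 2. The netrin receptor gene unc-5 scored 381 and 277, and unc-40, for the other netrin receptor, scored 304. Neither clr-1 nor gex-2 was a host. Of the 6 peaks in this list 4 were in first introns, both cam-1 peaks among them, against 32.9% of all intronic peaks.

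Lists of other tissues had few hosts, and their sizes leave wide intervals. The neuron list had 1 host of 20 (5.00%, 0.888 to 23.6), the kinesin gene unc-104 with a score of 362. The hypodermis and epithelium list had 1 of 18 (5.56%, 0.988 to 25.8), the cadherin gene hmr-1, with 3 peaks scoring 549, 190.03 and 189.64. The list gene elt-5 was not matched by that name. It is known as another name of egl-18, a GATA factor gene that was a host with a score of 215, and counting it gives 2 of 19 (10.5%, 2.94 to 31.4), an alternative chosen after seeing the data. The intestine list had 0 of 18, and by a floor of 3 counts its share could be as high as 16.7%. The pharyngeal muscle list had 0 of 11 (up to 27.3%) and the splicing regulators, asd-1 and asd-2 among them, 0 of 7 (up to 42.9%). The plotted upper limits of these 3 lists are Wilson limits, at 17.6%, 25.9% and 35.4%. The Wilson interval of the sarcomere list lay above that of the intestine list and overlapped those of the neuron and hypodermis lists. The intervals of the attachment, excitation, regulator and guidance lists overlapped those of all 3 of these tissues. Because hosts were long genes, peaks per Mb is the measure that counts gene length in, though not intron length. It was 14.5 in the hypodermis list without egl-18 (2.99 to 42.3) and 9.13 in the neuron list (0.231 to 50.9). The intestine, pharyngeal muscle and splicing lists had 0 peaks, with upper limits of 72.3, 82.5 and 119 per Mb. Each of these intervals overlapped those of the sarcomere, attachment, excitation, regulator and guidance lists. The peaks per Mb intervals for the sarcomere, attachment, regulator and guidance lists lay above the 8.97 per Mb of all genes. That of the excitation list included it. These intervals count neighbouring summits as separate peaks, as in tns-1 of the attachment list and in hlh-1 and unc-62 of the regulator list. The attachment interval began at 10.4 per Mb, and whether it stays above 8.97 with such pairs merged was not tested.

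**Figure D4:**
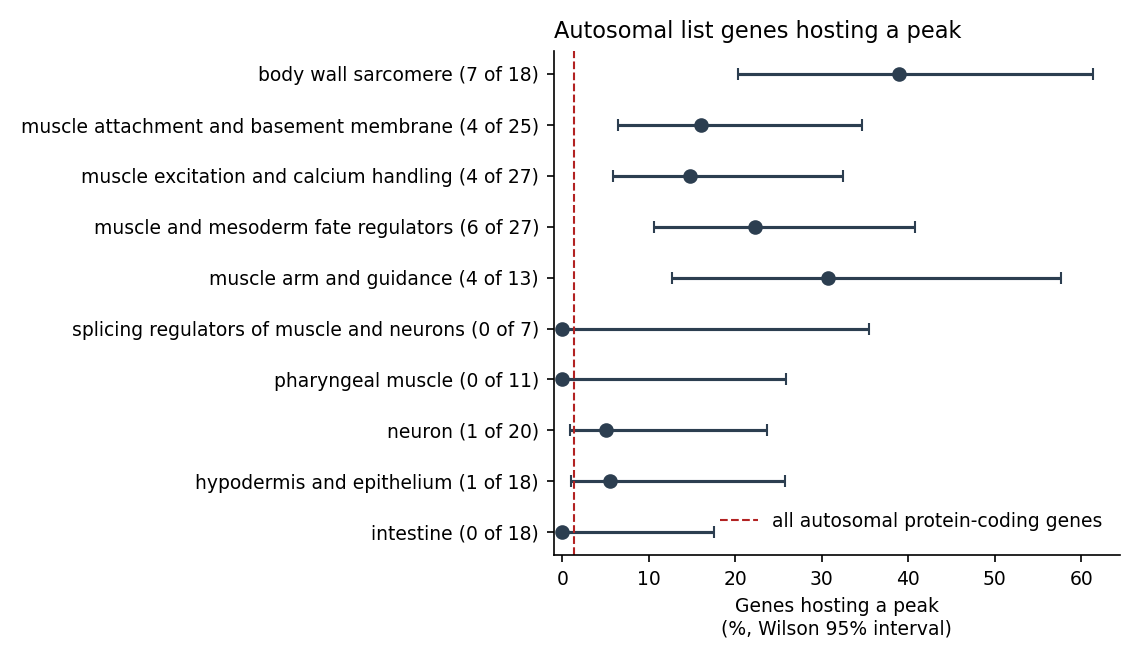
Share of the autosomal genes in each of 10 lists that hosted a gene body distal peak (x axis, percent with Wilson 95% interval), with the counts beside each list name and a dashed line at the 1.37% of all autosomal protein-coding genes. Sarcomere genes stand highest at 38.9%, and the intestine, pharyngeal muscle and splicing lists have 0 hosts.

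The sequences searched on both strands within 100 bp of each summit were the repeat GAGAGAGA, the E-boxes CAGCTG and CACCTG, the GATA site TGATAA, the CArG box and the MEF2 type site. A run of G and A of 10 bases or more always contains GAGAGAGA, and the others were counted independently of each other. The repeat GAGAGAGA was present at 79 of 322 gene body distal peaks (24.5%, 20.2 to 29.5), against 13.5% of promoter peaks (11.7 to 15.6), 26.6% of intergenic distal peaks (23.2 to 30.4) and 1.35% of 78889 tiles of the same width cut from intron sequence that meets the rule. The gene body share was 22.3% in the replicate 1 list and 23.5% in the replicate 2 list, against 13.9% and 13.8% at promoter peaks. A run of alternating G and A of 10 bases or more was present at 17.4% of gene body distal peaks, against 7.48% of promoter peaks and 17.8% of intergenic distal peaks. The repeat thus marked both distal classes more often than promoters, and its intervals in the 2 distal classes overlap. Its median distance from the summit was 39.5 bp. Peaks with the repeat had a median score of 288, and peaks without it 275.

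**Figure D5:**
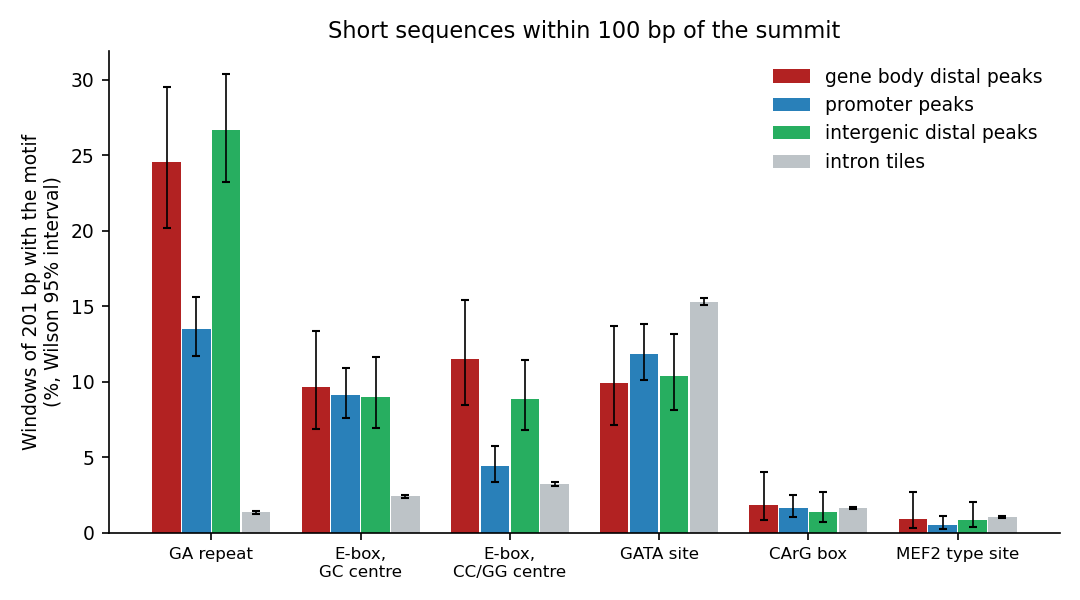
Share of windows, 100 bp to each side of the summit, holding each of 6 short sequences (y axis, percent with Wilson 95% interval) at gene body distal, promoter and intergenic distal peaks and in intron tiles. The GA repeat is at 24.5% of gene body distal peaks, against 13.5% of promoter peaks and 1.35% of tiles, and the CArG box is below 2% in all 4 classes.

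The 2 E-boxes differed in how they were spread over the classes. CAGCTG was at 31 of 322 (9.63%, 6.87 to 13.3), against 9.10% of promoter peaks, 8.997% of intergenic distal peaks and 2.42% of intron tiles. CACCTG was at 37 of 322 (11.5%, 8.45 to 15.4), against 4.42% of promoter peaks (3.39 to 5.75), 8.82% of intergenic distal peaks (6.77 to 11.4) and 3.20% of tiles. In the replicate 1 list the gene body share of CACCTG was 8.19% and the promoter share 4.30%, and in the replicate 2 list they were 11.0% and 5.02%. Median scores were 302 with CAGCTG and 277 without it, and 246 with CACCTG and 280.1 without it. The GATA site TGATAA was at 9.94% of gene body distal peaks (7.13 to 13.7), against 11.8% of promoter peaks and 15.3% of tiles.

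The CArG box was rare. It was present at 6 of 322 gene body distal peaks (1.86%, 0.857 to 4.01), against 1.62% of promoter peaks, 1.38% of intergenic distal peaks and 1.64% of intron tiles. These 6 peaks were in sem-4, ape-1, vab-1, Y105C5A.1, ZK632.2 and Y43F8C.6, with scores between 200.91 and 354 and ranks between 1038 and 2647. None of the 19 peaks in body wall muscle hosts had one, and by the floor of 3 counts 0 of 19 allows a share of up to 15.8%. GAGAGAGA was present at 6 of those 19, CAGCTG at 1 and CACCTG at 0, which the same floor bounds at 15.8%. Of the 322 peaks 173 (53.7%) had none of the 6 sequences. GC content was 45.8% ± 6.02 in gene body distal windows (SD, n = 322), 44.3% ± 6.67 at promoter peaks and 32.8% ± 7.73 in tiles, and its part in the motif shares was not tested. A match describes the letters in a window and does not show which factor was bound.

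Some summits lay within noncoding genes nested in the host. Of 322 summits 30 lay inside a noncoding gene (9.32%, 6.60 to 13.0), against 1.35% of the sequence that meets the rule. Genes annotated as ncRNA held 26 of these summits and antisense RNA genes 4; 1 summit in ppfr-1 is in both counts, and 1 in unc-104 lay in a pseudogene. At 4 summits the nested gene was a structural RNA that the rule does not leave out: RNase P RNA within ints-8, and signal recognition particle RNA within klp-6 (scores of 502 and 436) and ckb-2 (362). These 4 summits are distal to protein-coding 5' ends and lie within other transcribed genes.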

How the data were processed

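The authors' files were ranked lists of regions in narrowPeak format, in builds ce10 and ce11. The authors deposited a peak strength score with each region, in column 7, and its scale is unknown here. It was used within a list only, to rank, filter and describe its regions. The aligner, the caller, their versions and the read depth were not given in the sources used here, and no interval covers reads. The ce11 list thresholded on the irreproducible discovery rate (IDR), pooled from both replicates per the deposited listing, gave all peaks. The top 2946 nuclear regions of each replicate list gave the spread.

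Summits were placed on WBcel235, the same assembly as ce11, with Ensembl release 115 gene models, and sequences were read from the RefSeq copy of that assembly. Intron numbers follow the host transcript of longest span. Densities use only sequence that meets the same positional rule. Ranks in a replicate come from the nearest summit within 200 bp, so neighbouring summits can share one. Shares carry Wilson and densities exact Poisson 95% intervals, and medians carry order-statistic intervals. No tests were run, because 1 pooled list of 1 group has no replicate peaks.

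Of 243 list genes, elt-5 was not matched by name and was left out. The genes named are the hosts of the 15 highest scores, the 8 genes with most peaks, up to 6 hosts and 2 other genes of each muscle list, up to 2 hosts of each other list, and unc-120, hlh-1 and mef-2. Others, such as daf-14, ell-1, unc-89 and klp-6, were picked once their values had been seen. The members and the gene lists were chosen with earlier results of these data known. 1 result that the rule names is not reported here. The counting functions were tested on simulated data. Computations used Python 3.11.15, numpy 2.4.6, scipy 1.17.1 and matplotlib 3.10.9.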

Additional observations from a re-analysis of the deposited data

How the results depend on the processing

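No paired analysis was possible because there was 1 group only. Of 93 alternative values, 77 moved by less than 1.5 times (counts) or less than their interval (shares), and 16 moved by more, with none reversed. With a 5' window from 2000 bp upstream to 1000 bp downstream there were 199 peaks in 147 hosts. Of the 70 body wall muscle genes 10 then hosted a peak, against 0.853% of all autosomal genes. With one from 500 bp upstream to 100 bp downstream the intronic share was 91.0% and the first over later intron density 1.89. Among the 1473 strongest nuclear peaks there were 145 peaks in 120 hosts, with a median score of 398, 100% in the top regions of both replicates, and TGATAA at 6.90%. By the lowest intron number in any transcript, 47.9% were in first introns. With 50 bp on each side of the summit, shares were 14.6% for GAGAGAGA, 4.97% for CAGCTG and 3.73% for TGATAA, and with 200 bp they were 36.6%, 13.7% and 23.6%. A stricter rule or fewer peaks lowers the counts by construction, and a longer motif window holds more letters. Taking the strongest peaks raises their median score by construction and selects for high places in the replicate lists. Taking the lowest intron number in any transcript can only keep or raise the count of first intron peaks. For the other values the cause was not tested. Counting elt-5 as egl-18 was added after seeing the data. Median score and shared ranks were not recomputed without a replicate, since the lists differ in scale. Unknown depth limits any statement about weaker regions.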

Other observations

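Long GA runs were present in a few windows. The longest runs of alternating G and A were 39 bases in mtm-3 (score 188), 38 in kin-1, for the catalytic subunit of protein kinase A (338), and 25 in daf-14, for a Smad of the dauer pathway (493). Of 322 gene body distal peaks 7 had a run of 20 or more (2.17%, Wilson 95% interval 1.06 to 4.42), against 1.02% of promoter peaks, 2.42% of intergenic distal peaks and 0.0862% of intron tiles. Scores of these 7 lay between 188 and 493 with a median of 338, against a median of 278 over all 322. GAGAGAGA and CAGCTG stood together at 9 of the 322 peaks, among them mab-5 and tns-1. The peak of the GATA factor gene egl-18, with a score of 215, lay inside the noncoding gene F55A8.3.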
